A study of Rattus norvegicus with 6 samples.

Results

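Of the 18649 long noncoding RNAs (lncRNAs) listed for INS-1 cells, 126 (0.676%) had a mean FPKM of at least 50 over the 6 samples. FPKM divides the fragments of a transcript by its length and by the depth of sequencing, so that transcripts of different length can be set side by side. These 126 abundant lncRNAs were chosen by their FPKM, and their levels and their share of the FPKM sum are therefore descriptions without a test. The difference between the groups was not used in the choice. A high level in 1 group alone could still bring a lncRNA into the list.

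INS-1 cells are a line derived from a rat insulinoma, keep the capacity to secrete insulin and serve as a model of the beta cell. A single line stands for no range of animals. RNA-Seq compared 3 control samples (Con) with 3 samples of the same line treated with high glucose and palmitate (HG/PA), given in the methods as 25 mM glucose and 0.5 mM palmitate for 24 h. The comparison asks which lncRNAs differ in expression after this treatment. For RNA isolation the methods give TRIzol, whereas the labels give the RNeasy kit. The tables list lncRNAs alone, so beta cell markers could not be checked.

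Multiplied by length, the FPKM values of a sample were integers times a constant for 100% of the values above 0, within a tolerance of 0.01. This constant gave the number of fragments behind every FPKM and implied totals from 12491547 (Con 2) to 13770880 (Con 1) fragments per sample. Listed lncRNAs held between 1128838 (HG/PA 1) and 1331559 (Con 1) fragments. The 126 abundant lncRNAs had a median of 1112 fragments per sample, whereas all listed lncRNAs had a median of 11.8. Replicate pairs were compared over lncRNAs with a mean of at least 10 fragments in the pair, which included all 126. All 6 replicate pairs differed by more than counting noise, with values of chi-square over its degrees of freedom between 7.57 and 10.7. The chi-square of single lncRNAs was much lower, with a median between 0.836 and 0.920 over the lncRNAs compared and between 1.46 and 4.54 in the abundant ones. The median of a chi-square lies below its mean, so a median below 1 can still exceed counting noise. Between 22 and 45 of the 126 were above 10 in a pair. The paper calls the samples of a group biological triplicates, while the labels do not say whether they came from separate cultures, and p-values measure the spread between these samples. In RNA from whole cultures, fewer cells that express a transcript and less of it per cell cannot be told apart.

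Long noncoding RNAs are transcripts without a known protein product. Some of the most abundant noncoding RNAs of mammalian cells are parts of general machinery, such as the RNA of RNase MRP, the RNA of the signal recognition particle and 7SK, which restrains transcription elongation. Others, such as Malat1 and Neat1, stay in the nucleus, and Neat1 is the scaffold of paraspeckles. The identifiers of the 126 lncRNAs were not paired with gene names. In the RefSeq gene table (assembly GRCr8), 0 of 126 and 0 of all 18649 listed lncRNAs matched by identifier. The lookup therefore says nothing about the 126 in particular. Each is called by its identifier and its position on Rnor_6.0.

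The level of the abundant lncRNAs fell steeply with rank. Of the 126, 5 had a mean FPKM of at least 1000, another 2 lay between 500 and 1000, 6 between 200 and 500, 18 between 100 and 200, and 95 between 50 and 100. The median was 65.9, while the median of all listed lncRNAs was 1.45.

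The most abundant lncRNA was ENSRNOT00000090903, a transcript of 272 nt without an intron at chr5:58994682-58994953. Its FPKM was 14717, 14596 and 15158 in Con 1, 2 and 3 and 14077, 15065 and 14960 in HG/PA 1, 2 and 3. The groups overlapped, and the 6 values were close together, with a CV (SD divided by the mean) of 1.99% in Con and 3.69% in HG/PA. It overlaps NONRATT022213.2, which held between 32 and 64 fragments per sample.

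The next in FPKM, NONRATT003468.2, was the first in mean fragments over the 6 samples, since it is 2431 nt long (chr1:221156368-221158798). Its FPKM was 3882, 3667 and 1669 in Con 1, 2 and 3 and 3111, 1628 and 3514 in HG/PA 1, 2 and 3. It was low in 1 sample of each group, Con 3 and HG/PA 2, and the groups overlapped. The lncRNAs that overlap it, NONRATT003469.2 and NONRATT003470.2, held at most 101 fragments in any sample, whereas NONRATT003468.2 itself held 50822 in Con 3 and 129964 in Con 1. A difference of this size within a group is far above counting error, and its cause was not tested.

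NONRATT003467.2 lies beside it (chr1:221153903-221154144, 242 nt) and did not share the low values. Its FPKM was 2500, 2285 and 2403 in Con 1, 2 and 3 and 2415, 2677 and 2516 in HG/PA 1, 2 and 3. The groups overlapped. ENSRNOT00000088597 (chr6:91680229-91680528, 300 nt) had a mean FPKM of 1806 ± 197 in Con and 1942 ± 193 in HG/PA (SD, n = 3). ENSRNOT00000079055 (chr8:85480292-85480622, 331 nt) had 1332 ± 157 in Con and 1110 ± 92.6 in HG/PA (SD, n = 3). Both overlapped between the groups. Rank 6 was NONRATT010821.2 (chr15:27738989-27739245, 257 nt), with 951 ± 62.0 in Con and 969 ± 94.4 in HG/PA (SD, n = 3). None of these 6 lncRNAs passed the test of the treatment described further on.

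Ranks 7 to 10 were NONRATT015585.2 (chr2:198418650-198419319, 670 nt), NONRATT027026.2 (chr7:116779368-116780431, 1064 nt), NONRATT003473.2 (chr1:221200983-221204272, 3290 nt) and NONRATT005675.2 (chr10:61181194-61181957, 764 nt). Their mean FPKM over the 6 samples was 681, 287, 255 and 236. All of the 10 most abundant lncRNAs were unspliced, that is, their length equalled their genomic span.

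**Figure D1:**
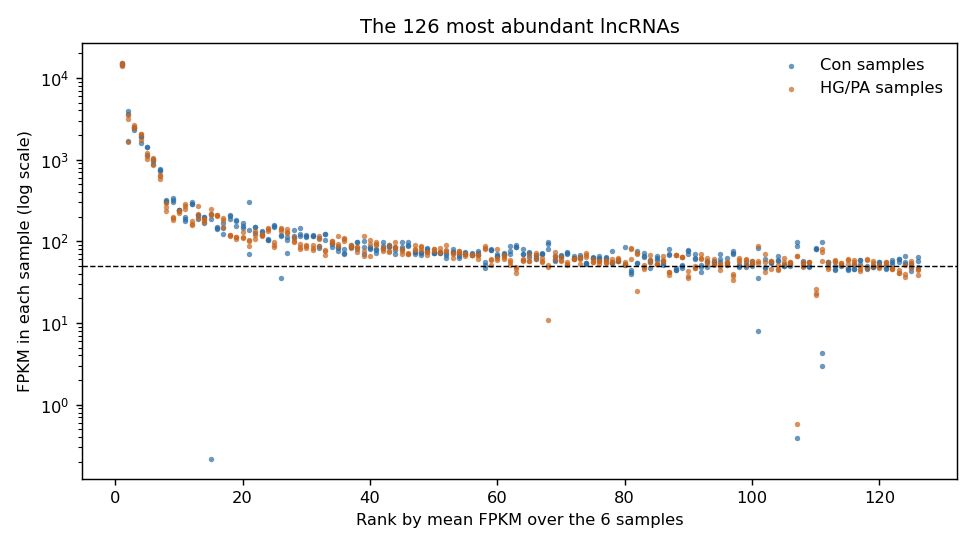
FPKM of the 126 abundant lncRNAs in each sample on a log scale, ordered by their mean over the 6 samples, with Con samples in blue, HG/PA samples in orange and a dashed line at 50. The first lncRNA has a mean of 14762 and most of the others lie between 50 and 100, while single samples of a few lncRNAs fall far below their own group.

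The abundant lncRNAs held 35.8%, 35.2% and 33.8% of the FPKM sum of all listed lncRNAs in Con 1, 2 and 3 and 35.2%, 35.6% and 36.5% in HG/PA 1, 2 and 3. The means were 34.9 ± 1.01% in Con and 35.7 ± 0.670% in HG/PA (SD, n = 3), and the samples of the groups overlapped. ENSRNOT00000090903 alone held 14.6 ± 0.405% in Con and 15.3 ± 0.481% in HG/PA (SD, n = 3). The first 7 lncRNAs together held 24.8 ± 1.17% in Con and 25.7 ± 0.788% in HG/PA (SD, n = 3), most of the share of all 126.

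FPKM weights short transcripts more than their fragments do. Of the fragments on listed lncRNAs, the 126 held 29.3 ± 2.34% in Con and 28.7 ± 1.87% in HG/PA (SD, n = 3). NONRATT003468.2 held 7.80 ± 2.98% of the fragments in Con and 7.42 ± 2.55% in HG/PA (SD, n = 3), by these means more than any other lncRNA. In Con 3 and HG/PA 2, ENSRNOT00000090903 held more, with 4.44% and 4.68% against 4.36% and 4.52%. These low values of NONRATT003468.2 made the largest part of the spread. Without it among the members, the share of fragments was 21.5 ± 0.646% in Con and 21.3 ± 0.710% in HG/PA (SD, n = 3). In Con 1, the share of fragments was 30.9% with an exact 95% interval from 30.8% to 31.0%, which covers counting error only.

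**Figure D2:**
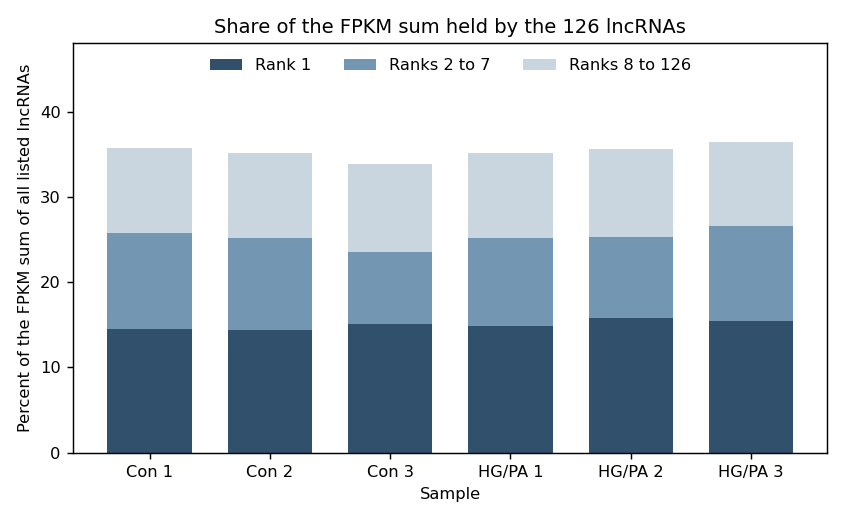
Percent of the FPKM sum of all listed lncRNAs held by the abundant lncRNAs in each sample, with the first lncRNA, ranks 2 to 7 and the remaining ranks stacked. The stacks reach 33.8% in Con 3 and 36.5% in HG/PA 3, and the part of the remaining ranks is near 10% in every sample.

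By position, the abundant lncRNAs lay on all 21 chromosomes of the tables. Chromosome 10 held 18 of them (14.3%, against 8.08% of all listed lncRNAs). Chromosome 1 held 17 (13.5%, against 12.2%) and chromosome 7 held 11 (8.73%, against 6.95%). Chromosomes 15 and 16 held 1 each (0.794%, against 2.90% and 3.07%). Per 100 listed lncRNAs, chromosomes 18 and 17 held the most abundant ones, with 1.35 and 1.21. By source, 121 carried NONCODE and 5 carried Ensembl identifiers, which is 3.97% from Ensembl against 3.66% of all listed lncRNAs. Lengths ran from 206 nt (NONRATT014591.2) to 4927 nt (NONRATT001969.2) with a median of 970 nt, whereas the median was 941 nt for lncRNAs between 25 and 50 FPKM and 663 nt for all listed lncRNAs. In classes of length, 9 were under 300 nt, 56 from 300 nt to under 1000 nt, and 61 were 1000 nt or longer. The longest class made up 48.4% of the abundant lncRNAs and 21.2% of all listed lncRNAs.

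Unspliced transcripts made up 84 of the 126 (66.7%), against 45.9% of all listed lncRNAs. In addition, 43 of the 126 (34.1%) overlapped another listed lncRNA, against 30.4% of all. The overlaps matter because fragments in a shared stretch could be assigned to either transcript, and the values of such lncRNAs are uncertain to that extent. The libraries kept strand, but the tables do not give the strand of a transcript.

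Chaining lncRNAs that overlap or lie less than 10 kb apart put the 126 into 119 loci, of which 6 held at least 2 abundant lncRNAs. The locus with the most, chr1:221191924-221204272, held NONRATT003471.2, NONRATT003472.2 and NONRATT003473.2. It begins 33125 nt after the end of the locus of NONRATT003467.2 and NONRATT003468.2 (chr1:221153903-221158798).

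The threshold of 50 falls in a dense range of levels. Just above it were NONRATT005931.2, NONRATT005336.2 and NONRATT013953.2, with a mean FPKM of 50.3, 50.2 and 50.1. Just below it were NONRATT000625.2, NONRATT002481.2 and NONRATT029856.2, with 49.9, 49.7 and 49.6. In single samples, 81 of the 126 reached 50 in every sample.

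Most abundant lncRNAs had close values in the 3 replicates of a group. Their median CV was 5.47% in Con and 6.61% in HG/PA, and the counting error, taken as 1 over the square root of the mean fragments, had a median of 2.97% and 2.98%. All listed lncRNAs had a median CV of 27.2% in Con and 28.4% in HG/PA with a median counting error of 28.1% and 29.3%, since they have fewer fragments. A CV over 3 values lies more often below the true CV than above it, so the CVs and the counting errors are not on quite the same scale. Between 25 and 50 FPKM, the median CV was 6.75% in Con and 6.85% in HG/PA, close to that of the abundant lncRNAs. Both CVs were at most 10% for 86 of the 126. Without Con 1, 2 or 3, the median CV of Con over the remaining 2 values was 5.37%, 4.72% and 3.38%, where CVs over 2 values tend to be lower than over 3, and the lowest was without Con 3.

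By the mean of both CVs, the 3 steadiest lncRNAs were NONRATT021366.2 (chr4:68564746-68566702, 1957 nt), NONRATT023721.2 (chr5:153769707-153772038, 2332 nt) and NONRATT004721.2 (chr10:74544708-74547584, 2877 nt). NONRATT021366.2 had an FPKM of 69.5, 72.5 and 68.8 in Con 1, 2 and 3 and 68.0, 67.9 and 68.4 in HG/PA 1, 2 and 3. The lowest Con value was above the highest HG/PA value by less than the spread of Con. With 3 values per group, CVs below counting error also occur.

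In 10 abundant lncRNAs the CV was above 30%, in Con alone for 5, in HG/PA alone for 3 and in both for 2. Of these 10, 8 overlapped another listed lncRNA and 7 were spliced, whereas 42 of all 126 were spliced. NONRATT012773.2 (chr17:9458055-9458293, 239 nt) had 14, 289 and 9 fragments in Con 1, 2 and 3 and 240, 185 and 233 in HG/PA 1, 2 and 3. Thus Con 2 lay with the HG/PA samples. NONRATT005942.2 (chr10:84682448-84688899, 408 nt) had 485, 500 and 2 fragments in Con 1, 2 and 3 and 3, 364 and 360 in HG/PA 1, 2 and 3, so 1 sample of each group was almost empty. NONRATT015323.2 (chr2:151314797-151320380, 1637 nt) had 182, 718 and 1696 fragments in Con 1, 2 and 3 and 1120, 1286 and 1892 in HG/PA 1, 2 and 3, with no overlap with another listed lncRNA.

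NONRATT003889.2 (chr1:266859965-266866774, 369 nt), chosen after its values were seen, had an overlapping lncRNA with the opposite pattern in Con. It had 944, 1 and 1007 fragments in Con 1, 2 and 3 and 1144, 1096 and 1011 in HG/PA 1, 2 and 3. NONRATT003890.2, which overlaps it, had 4, 640 and 4 fragments in Con 1, 2 and 3 and 4, 4 and 99 in HG/PA 1, 2 and 3. The sample in which the first transcript was almost empty was thus the one in which the other was high. Summed over both, the CV of Con was 22.1% in place of 87.3%. In most of the others the sum changed little: the CV of Con was 143% in place of 155% for NONRATT012773.2, 69.6% in place of 70.0% for NONRATT030207.2 and 50.9% in place of 52.3% for NONRATT005877.2. Beside NONRATT005942.2, the overlapping NONRATT005943.2 held 703, 632 and 709 fragments in Con 1, 2 and 3 and 461, 451 and 472 in HG/PA 1, 2 and 3. Summed over NONRATT005942.2 and the lncRNAs that overlap it, the CV was 20.9% in place of 86.6% in Con. In HG/PA it was 24.2% in place of 85.5%. The sums were still lowest in Con 3 and HG/PA 1. None of the 10 unstable lncRNAs passed the test of the treatment.

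**Figure D3:**
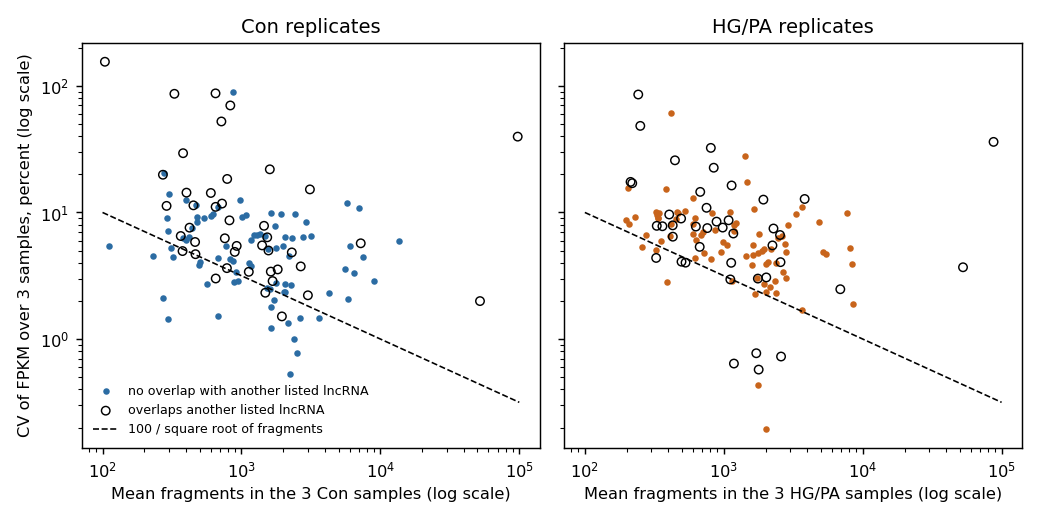
CV of FPKM over the 3 replicates against the mean number of fragments of the 126 abundant lncRNAs in Con and in HG/PA, both on log scales, with open circles for lncRNAs that overlap another listed lncRNA and a dashed line at 100 over the square root of the fragments. Most points lie under 10%, and the lncRNA with the most fragments stands at 39.7% in Con and 36.1% in HG/PA.

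After HG/PA treatment, 9 of the 126 abundant lncRNAs were higher and 21 were lower, and most of these changes were smaller than 2-fold. The largest fall was that of NONRATT002602.2, to 0.290 of its Con level. It and the next 3 falls had a mean FPKM of at least 50 in Con alone, so their Con level brought them into the list, and with both groups at 50 or more no lncRNA passed 2-fold at a limma adjusted p below 0.05. The falls included all 3 lncRNAs of the locus at chr1:221191924-221204272, while the pair of still more abundant lncRNAs next to it did not pass the test. The remaining 96 lncRNAs, with all of those above a mean FPKM of 1000 among them, did not pass.

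The test was limma on log2(FPKM + 0.1). It took in 17558 lncRNAs that reached an FPKM of 0.1 in 3 or more samples, with p adjusted over all of them by the Benjamini-Hochberg method. All 126 abundant lncRNAs entered the test. A fold change is on this log2 scale, although the added 0.1 matters little at these levels. At a limma adjusted p below 0.05, 9 abundant lncRNAs (7.14%) were higher, where 1.05% of all tested lncRNAs were called higher, and 21 (16.7%) were lower, where 1.72% were called lower. Of the 9, 3 had a mean FPKM of at least 50 in HG/PA alone, and of the 21, 8 had it in Con alone. The direction of these was fixed by that split, and they are counted apart further on. The called share was larger at higher levels: 2.29% of lncRNAs with a mean FPKM from 1 to under 10 were called in either direction, 9.98% from 10 to under 25 and 18.7% from 25 to under 50, against 23.8% of the abundant lncRNAs.

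Changes of 2-fold or more at a limma adjusted p below 0.05 were found in 1 abundant lncRNA, NONRATT002602.2 (0.794%), against 1.49% of all tested lncRNAs. Without Con 2 there were 3, without HG/PA 2 there were 2 and without HG/PA 3 there were 3, and 1 in each of the other fits that left out 1 sample. At an unadjusted p below 0.05, 2 lncRNAs passed 2-fold (1.59%), NONRATT002602.2 and NONRATT026827.2, against 6.49% of all tested, and without Con 1 only 1 passed. The median size of the log2 fold change was 0.22 in the abundant lncRNAs, 0.24 in those between 25 and 50 FPKM and 0.36 in all tested lncRNAs. All HG/PA samples lay above all Con samples in 28 abundant lncRNAs (22.2%), against 7.44% of all tested, and below them in 46 (36.5%), against 16.2%. Both counts include lncRNAs with a mean FPKM of at least 50 in 1 group alone, whose direction was fixed by the way they entered the list.

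Over all lncRNAs, FPKM was somewhat lower in HG/PA, with a median log2 fold change of -0.11 over all tested lncRNAs and -0.06 over the abundant ones. Dividing each sample by its median of ratios brought the median of all to 0.01. After that rescaling, 15 abundant lncRNAs were called higher and 12 lower in place of 9 and 21. Quantile normalization gave 10 higher and 19 lower, and limma-voom on fragments 10 and 22, so falls outnumbered rises except after median of ratios. With median of ratios, all 9 that were higher and 12 of the 21 that were lower were still called in the same direction, 6 more were called higher, and no called lncRNA changed its direction. The number of calls also depended on the variance model and on each sample. Without the trend in limma, NONRATT002602.2 was the only 1 of the 126 that was called. Leaving out Con 1, 2 or 3 gave 13, 15 and 15 calls, and leaving out HG/PA 1, 2 or 3 gave 14, 13 and 18. Of the 30 called lncRNAs, 11 were called in each of these 6 fits.

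**Figure D4:**
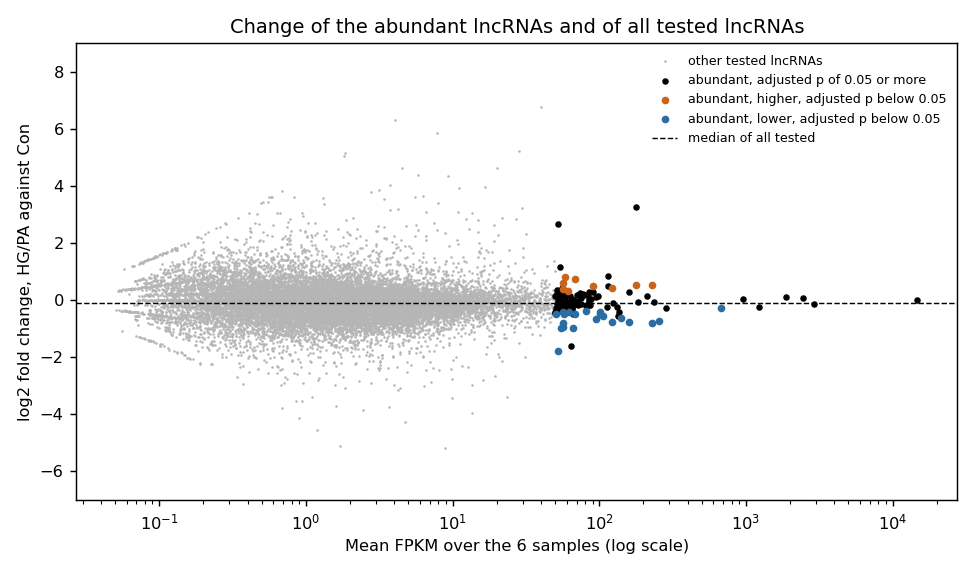
The log2 fold change of HG/PA against Con from limma against the mean FPKM on a log scale, for the 126 abundant lncRNAs (black, or orange and blue where the adjusted p was below 0.05) and all other tested lncRNAs (grey), with a dashed line at the median of all tested, -0.11. The called abundant lncRNAs lie between -1.78 and 0.82, and the black points beyond that range are lncRNAs with unequal replicates.

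NONRATT002602.2, a spliced transcript of 643 nt at chr1:100808628-100811904, had the largest fall among the called abundant lncRNAs. Its FPKM was 80.1, 81.1 and 82.5 in Con 1, 2 and 3 and 25.8, 23.1 and 21.8 in HG/PA 1, 2 and 3. Every HG/PA sample was far below every Con sample, by more than the spread of either group. The log2 fold change was -1.78 ± 0.08 (SE; limma adjusted p = 0.00162), or -1.67 when counted from the median of all lncRNAs, and it was called in all 6 fits that left out 1 sample.

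The next 4 falls took the level to between 0.509 and 0.567 of Con. NONRATT001711.2 (chr1:257083498-257084735, 1238 nt) had an FPKM of 72.7, 69.9 and 75.4 in Con 1, 2 and 3 and 33.7, 37.7 and 39.6 in HG/PA 1, 2 and 3. NONRATT001969.2, the longest of the 126 (chr1:13832310-13837236), had 85.2, 86.0 and 91.0 in Con 1, 2 and 3 and 40.8, 45.5 and 47.9 in HG/PA 1, 2 and 3. In both the groups were widely apart, with a log2 fold change of -0.97 ± 0.08 (SE; limma adjusted p = 0.00436 for each), or -0.86 and -0.85 beside the median of all. NONRATT029216.2 (chr9:17347881-17354193, 793 nt) went from 74.2 ± 4.64 in Con to 38.7 ± 3.73 in HG/PA (SD, n = 3), a log2 fold change of -0.94 ± 0.09 (SE; limma adjusted p = 0.00628). It overlaps 2 other listed lncRNAs, so its level is uncertain to that extent. NONRATT005732.2 (chr10:67049297-67051672, 2376 nt) was the most abundant of these 5, with 286, 288 and 301 in Con 1, 2 and 3 and 175, 160 and 162 in HG/PA 1, 2 and 3. Its groups did not overlap, and its log2 fold change was -0.82 ± 0.05 (SE; limma adjusted p = 0.00225). All 4 were also called in every fit that left out 1 sample.

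The 3 abundant lncRNAs of the locus at chr1:221191924-221204272 fell to a similar degree. NONRATT003473.2 (3290 nt) had an FPKM of 317, 299 and 337 in Con 1, 2 and 3 and 198, 184 and 195 in HG/PA 1, 2 and 3. NONRATT003472.2 (chr1:221199790-221200570, 781 nt) had 178, 156 and 180 in Con 1, 2 and 3 and 113, 108 and 114 in HG/PA 1, 2 and 3. NONRATT003471.2 (chr1:221191924-221192632, 709 nt) had 104, 124 and 124 in Con 1, 2 and 3 and 78.1, 68.5 and 75.0 in HG/PA 1, 2 and 3. All Con samples were above all HG/PA samples in each of the 3. The log2 fold changes were -0.72 ± 0.06, -0.61 ± 0.07 and -0.67 ± 0.09 (SE), with a limma adjusted p of 0.00436, 0.00975 and 0.0172. Taken from the median of all tested lncRNAs, the falls were -0.61, -0.50 and -0.55. The lncRNAs of a locus may be pieces of a longer transcript and are not independent of each other.

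Within this locus, NONRATT003473.2 was called in every fit that left out 1 sample. NONRATT003472.2 was not called without Con 1 or without HG/PA 2 (limma adjusted p = 0.0517 and 0.0511). NONRATT003471.2 was called without Con 1 alone, and its limma adjusted p was between 0.0523 and 0.0740 without Con 2, Con 3, HG/PA 1, HG/PA 2 or HG/PA 3. In the neighbouring locus, the log2 fold change was -0.14 ± 0.40 for NONRATT003468.2 and 0.08 ± 0.05 for NONRATT003467.2 (SE; limma adjusted p = 0.898 and 0.450). That of NONRATT003468.2 depended on single samples, with 0.08, 0.04 and -0.53 without Con 1, 2 or 3, -0.27, 0.20 and -0.35 without HG/PA 1, 2 or 3, and -0.60 in limma-voom on fragments, none of them called. Whether the loci differ in their response was not tested.

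The rises had fold changes between 1.25 and 1.77, and log2 fold changes between 0.32 and 0.82 as measured or 0.44 and 0.94 when counted from the median of all lncRNAs. The median rise was 0.51 and the median fall -0.61 as measured, against 0.63 and -0.50 from that median, so which was larger depended on the scale. Of the rises described here, NONRATT014591.2 and NONRATT004721.2 had a mean FPKM of at least 50 in HG/PA alone, so their HG/PA level brought them into the list. NONRATT014591.2, the shortest of the 126 (chr19:26233838-26234043), had an FPKM of 44.4, 41.6 and 39.9 in Con 1, 2 and 3 and 61.4, 80.5 and 82.5 in HG/PA 1, 2 and 3. All HG/PA samples were higher, although HG/PA 1 less so than the others. Its log2 fold change was 0.82 ± 0.12 (SE; limma adjusted p = 0.0243), and it rests on 158 fragments per sample. It was not called without Con 1, Con 2, Con 3, HG/PA 2 or HG/PA 3, where the limma adjusted p was between 0.0768 and 0.0930.

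NONRATT017909.2 (chr3:3788747-3789475, 729 nt) had 46.5, 56.0 and 51.5 in Con 1, 2 and 3 and 88.4, 81.4 and 83.6 in HG/PA 1, 2 and 3. The groups were apart by several times the spread within them, with a log2 fold change of 0.72 ± 0.08 (SE; limma adjusted p = 0.0111, or 0.0504 without HG/PA 1). NONRATT004721.2 had 44.8, 46.4 and 43.9 in Con 1, 2 and 3 and 67.6, 68.5 and 68.4 in HG/PA 1, 2 and 3. NONRATT004576.2 (chr10:63390219-63393335, 3117 nt) had 146, 142 and 148 in Con 1, 2 and 3 and 204, 212 and 209 in HG/PA 1, 2 and 3. Both had narrow groups that did not overlap, with log2 fold changes of 0.60 ± 0.05 and 0.52 ± 0.04 (SE; limma adjusted p = 0.00572 and 0.00436), and both were called in every fit that left out 1 sample. NONRATT004721.2 overlaps 2 other listed lncRNAs, which held at most 5 fragments in any sample. NONRATT024810.2 (chr6:11067659-11068300, 642 nt) went from 188 ± 9.44 in Con to 269 ± 20.1 in HG/PA (SD, n = 3), a log2 fold change of 0.51 ± 0.07 (SE; limma adjusted p = 0.0163). Another listed lncRNA overlaps it, with few fragments beside its own. It was not called without Con 1, Con 2, HG/PA 1 or HG/PA 2, where the limma adjusted p was between 0.0598 and 0.0804.

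**Figure D5:**
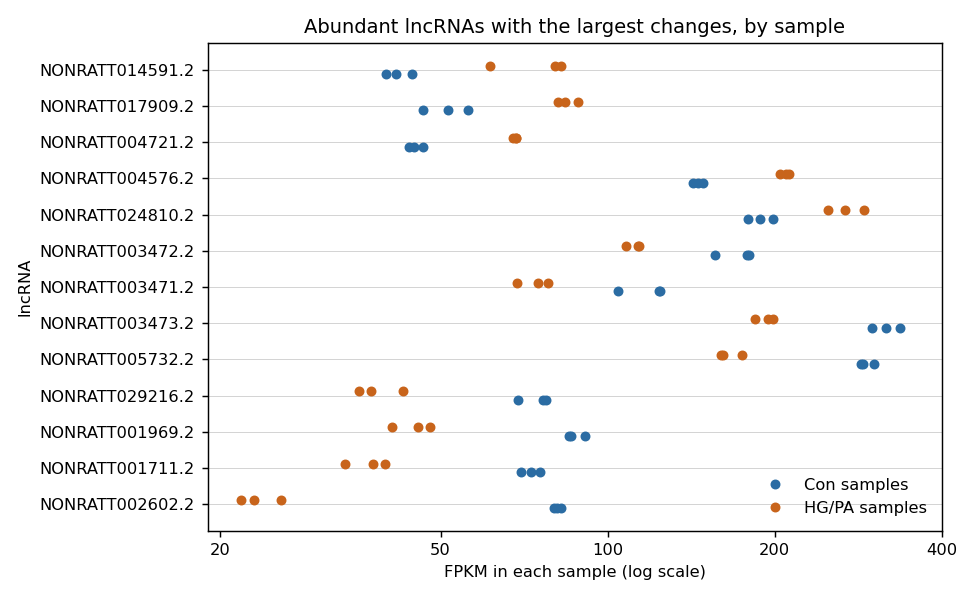
FPKM in each sample on a log scale for the 5 largest rises, the 5 largest falls and the 3 lncRNAs of the locus with the most abundant lncRNAs, with Con samples in blue and HG/PA samples in orange. In each of these lncRNAs the 3 samples of a group stand on 1 side of the other group, from 80.1 to 82.5 against 21.8 to 25.8 in NONRATT002602.2.

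Among the 10 most abundant lncRNAs, NONRATT015585.2 and NONRATT003473.2 were called. NONRATT015585.2 had an FPKM of 769, 720 and 741 in Con 1, 2 and 3 and 643, 626 and 586 in HG/PA 1, 2 and 3. The groups did not overlap, and the log2 fold change was -0.27 ± 0.05 (SE; limma adjusted p = 0.0384). Beside the median of all tested the change was -0.15, and it was not called after rescaling by the median of ratios (-0.13, limma adjusted p = 0.248) or without any 1 of Con 1, Con 2, Con 3, HG/PA 1, HG/PA 2 and HG/PA 3 (limma adjusted p between 0.0663 and 0.139). NONRATT027026.2 and NONRATT005675.2 also had all HG/PA samples below all Con samples but did not pass (limma adjusted p = 0.153 and 0.464). The log2 fold change of ENSRNOT00000090903 was -0.01 ± 0.03 (SE; limma adjusted p = 0.878), the smallest SE of the 10.

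The mean FPKM was at least 50 in both groups for 95 of the 126, in Con alone for 17 and in HG/PA alone for 14. A lncRNA of the latter kinds had to differ between the groups in its mean, so they were counted apart. Among the 95, 6 were higher and 13 lower, where 1.05% of all tested lncRNAs were called higher and 1.72% lower. Of the 353 lncRNAs with a mean FPKM from 25 to under 50, 23 were higher and 43 lower. Their called share of 18.7% was close to that of the 95. Among the 17, 8 were lower, and among the 14, 3 were higher. For these 2 kinds the direction was fixed by the way they were split off, so their counts are descriptions without a test. Of the 6 in these 2 kinds with the largest changes, NONRATT002602.2, NONRATT001711.2 and NONRATT001969.2 were called, and the other 3 had unequal replicates and were not. NONRATT012773.2 had a log2 fold change of 2.66 ± 1.22 (SE; limma adjusted p = 0.330). Leaving out Con 1, 2 or 3 gave 2.00, 4.24 and 1.75 (limma adjusted p = 0.546, 0.00682 and 0.562), and a call arose only without Con 2. NONRATT026827.2 (chr7:70476738-70477604, 867 nt) had an FPKM of 81.5, 93.1 and 97.8 in Con 1, 2 and 3 and 51.6, 47.9 and 10.8 in HG/PA 1, 2 and 3. HG/PA 3 was far below the other HG/PA samples, and the log2 fold change was -1.60 ± 0.57 (SE; limma adjusted p = 0.219). Leaving out HG/PA 1, 2 or 3 gave -1.99, -1.94 and -0.86 (limma adjusted p = 0.200, 0.244 and 0.0294). NONRATT015323.2 had 1.17 ± 0.77 (SE; limma adjusted p = 0.501), and leaving out Con 1, 2 or 3 gave 0.27, 1.32 and 1.94 (limma adjusted p of 0.234 or more).

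By structure, 7 of the 84 unspliced abundant lncRNAs were higher and 15 lower, and 2 of the 42 spliced ones were higher and 6 lower. Of all tested lncRNAs, 1.32% of the unspliced were higher and 2.24% lower, and 0.821% of the spliced were higher and 1.27% lower. By length, 5 of the 61 lncRNAs of at least 1000 nt were higher and 13 lower, whereas of the 9 under 300 nt, 1 was higher and 1 lower. Of all tested lncRNAs, 1.86% of those of at least 1000 nt were higher and 3.10% lower, and 1.17% of those under 300 nt were higher and 0.649% lower. Differences between these classes were not tested, and the longer lncRNAs also had smaller CVs (median of the mean CV 4.47%, against 8.11% from 300 nt to under 1000 nt).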

How the data were processed

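Total RNA of 3 Con and 3 HG/PA samples was made into strand-specific libraries. According to the methods, the authors cleaned the reads with seqtk, aligned them to Rnor_6.0 by HISAT2, obtained FPKM values from StringTie and tested with edgeR. They deposited the FPKM of annotated lncRNAs, a table for each sample. Groups followed the labels.

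Fragments were recovered from FPKM times length. Abundant lncRNAs had a mean FPKM of at least 50. Differences were fitted with limma 3.58.1 in R 4.3.3 (trend, log2(FPKM + 0.1), FPKM of at least 0.1 in 3 samples, without scaling or block). The fit was first run on simulated fragments in which all changes were 2-fold or larger. That run does not bear on smaller changes, which most of those called here were. Python 3.11.15, numpy 2.4.6, pandas 2.3.3, scipy 1.17.1 and matplotlib 3.10.9 were used. Named lncRNAs were the 10 most abundant, any past 2-fold at an adjusted p below 0.05, the 5 largest called rises and falls, the locus with most members, the 3 largest and 3 smallest CVs, 3 on each side of the threshold, the longest and shortest, and up to 6 above 50 in 1 group. Members and lists were chosen with earlier results of these data known. Alternatives were pseudocounts of 0.01 and 1, no filter or one at FPKM 1, median of ratios, quantile normalization, no trend, a replicate block, limma-voom on fragments, leaving out each sample, and other rules for members.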

Additional observations from a re-analysis of the deposited data

How the results depend on the processing

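The count of 30 called abundant lncRNAs was 27 to 33 with other pseudocounts and filters, both scalings and limma-voom on fragments. It was 1 without the trend, and 13 to 18 when 1 sample was left out. With a mean of at least 50 in both groups it was 19, at a threshold of 100 it was 12 and at 25 it was 96, where members differ in number. Past 2-fold at an adjusted p below 0.05 there was 1 lncRNA, and 1 to 3 without 1 sample (3 without Con 2, 2 without HG/PA 2, 3 without HG/PA 3), 0 with both groups at 50 or at a threshold of 100, and 7 at 25. With unadjusted p below 0.05, 2 passed, 1 to 3 without 1 sample (1 without Con 1, 2 without HG/PA 1, 3 without Con 2, Con 3, HG/PA 2 or HG/PA 3), 0 with both groups at 50 or at 100, and 13 at 25.

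The share of the FPKM sum was 34.9% in Con and 35.7% in HG/PA. It was 33.2% and 34.1% with both groups at 50, 28.8% and 29.6% at 100, 47.1% and 48.3% at 25, and 29.3% and 28.7% of fragments. Without NONRATT003468.2, chosen after seeing the data, it was 32.9% and 33.8%. Leaving out 1 sample gave 34.5% to 35.5% in Con and 35.4% to 36.0% in HG/PA. The median CV was then 3.38% (without Con 3) to 5.37% in Con and 4.51% to 6.12% in HG/PA, over 2 values, which tends to lower a CV.

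For the 34 named lncRNAs under 15 alternatives, 455 values kept their side of the threshold, 51 lost and 4 gained a call, and none of the called values changed sign. The cause was not tested. With a replicate block, 4 of the 126 were called, all lower. Deviations of samples that share a number were not correlated (-0.0174, -0.0144 and -0.0322 for numbers 1, 2 and 3).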

Other observations

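Ranked by fragments in place of FPKM, 66 of the 126 most abundant lncRNAs by FPKM were also among the first 126, which is 52.4% of each list. The 60 others in the list by fragments had a mean FPKM between 13.4 and 49.6 and were long, with a median length of 3131 nt, and 45 of them were unspliced. The 60 abundant lncRNAs outside it had a median length of 548 nt and a median of 480 fragments per sample. The first of the lncRNAs that fragments alone would add was NONRATT016095.2 (chr2:41559963-41564639, 4677 nt), rank 18 by fragments and 150 by FPKM. Its FPKM was 54.4, 53.8 and 58.9 in Con 1, 2 and 3 and 34.4, 36.2 and 36.9 in HG/PA 1, 2 and 3, without overlap of the groups.

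Just below the threshold, NONRATT029856.2 (chr9:27112633-27114344, 1712 nt) had an FPKM of 32.7, 35.1 and 31.2 in Con 1, 2 and 3 and 68.1, 64.4 and 65.9 in HG/PA 1, 2 and 3. The groups were far apart, with a log2 fold change of 1.00 in limma, so a rule on the HG/PA samples alone would have taken it.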
